A study of Mus musculus with 24 samples.

Results

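Glycolysis was followed through 10 genes: Slc2a1, Hk1, Hk2, Pfkl, Pfkp, Aldoa, Tpi1, Pgk1, Eno1 and Ldha. They were chosen by name, with earlier results of these data known. A gene counted as measured when the array held a probe set annotated to its symbol alone. Of these, 9 were measured, with 24 of the 45101 probe sets of the Affymetrix expression array. Eno1 carried no probe set in the annotation used here and was not analysed here. All 9 measured genes belonged to the 12745 tested genes, among 18194 with a probe set of 1 symbol. Hk2 and Ldha rested on 1 probe set each, and 2 of the 3 Pfkp probe sets stayed below the filter of 4.64 on the log2 scale on all 13 arrays.

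The arrays hold RNA of sorted marrow cells from mice of the 129ola strain, 8 to 12 weeks of age. Dnmt1 encodes the methyltransferase that maintains DNA methylation after replication. Hypomorph mice had the genotype Dnmt1-/chip, a null allele over an allele of reduced function that every cell of the animal carries, and wildtype mice were Dnmt1+/+. The groups were myeloid progenitors (MP) of hypomorph mice on 3 arrays, MP of wildtype mice on 3 arrays, B cell progenitors of wildtype mice on 2 arrays, haematopoietic stem cells (HSC) of hypomorph mice on 3 arrays and HSC of wildtype mice on 2 arrays. Each RNA sample came from 35000 to 100000 cells, the sort gates are not given in the sources used here, and B cell progenitors of hypomorph mice are not analysed here. Whether replicate arrays stand for separate animals is not in the labels. The p-values therefore measure array-to-array spread, and the small number of arrays limits the precision. Levels of Eif2s3y, a Y-linked gene, differed between arrays of every group, with 10.16 and 2.47 in B progenitors. The arrays of a group thus did not all hold RNA of the same animals, though part of the spread may be technical.

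Glycolysis splits glucose into pyruvate in the cytosol and yields ATP without oxygen. Slc2a1 encodes the transporter GLUT1, which lets glucose into the cell, and hexokinases trap it as glucose 6-phosphate. Phosphofructokinase commits the sugar to breakdown, aldolase splits it, triosephosphate isomerase interconverts the products, phosphoglycerate kinase makes ATP, and lactate dehydrogenase turns pyruvate into lactate while it regenerates NAD+. Stem cells of the bone marrow are known for a reliance on glycolysis in a marrow with little oxygen, and many genes of the pathway are known targets of the hypoxia-inducible factor and of Myc.

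The promoters of 5 genes are shown, since all measured genes were lower in B progenitors than in HSC. Slc2a1, Hk2 and Pfkl were the genes called between wildtype MP and HSC, with Hk2 higher and the others lower in MP. Pgk1 had the tightest intervals. Ldha had the most motif matches in a count that takes each CACGTG as a match on both strands. The sequences are RefSeq windows of 300 bases on the strand of the gene around its annotated start in build GRCm38.p6, and capitals mark the letters ACGTG or GCGTG on either strand, the core of the site that the hypoxia-inducible factor binds.
Slc2a1, chr4:119108495-119108794, plus strand: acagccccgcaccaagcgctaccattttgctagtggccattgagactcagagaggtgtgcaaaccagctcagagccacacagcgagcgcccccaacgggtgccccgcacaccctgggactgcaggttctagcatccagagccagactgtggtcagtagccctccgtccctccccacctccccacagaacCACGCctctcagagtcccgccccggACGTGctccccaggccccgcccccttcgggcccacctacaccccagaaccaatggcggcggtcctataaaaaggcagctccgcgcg
Hk2, chr6:82774405-82774704, minus strand: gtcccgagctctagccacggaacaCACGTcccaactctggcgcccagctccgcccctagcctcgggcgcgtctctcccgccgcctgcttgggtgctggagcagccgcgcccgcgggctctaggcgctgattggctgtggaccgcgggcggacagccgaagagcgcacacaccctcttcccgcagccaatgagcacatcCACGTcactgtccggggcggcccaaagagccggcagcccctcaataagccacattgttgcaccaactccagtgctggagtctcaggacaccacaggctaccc
Pfkl, chr10:78009758-78010057, minus strand: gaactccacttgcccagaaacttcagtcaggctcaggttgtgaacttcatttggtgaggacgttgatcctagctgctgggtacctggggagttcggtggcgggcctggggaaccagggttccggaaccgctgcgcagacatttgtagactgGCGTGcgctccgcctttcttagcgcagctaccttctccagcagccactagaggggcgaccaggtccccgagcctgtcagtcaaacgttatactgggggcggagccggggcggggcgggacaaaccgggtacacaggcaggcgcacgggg
Pgk1, chrX:106186850-106187149, plus strand: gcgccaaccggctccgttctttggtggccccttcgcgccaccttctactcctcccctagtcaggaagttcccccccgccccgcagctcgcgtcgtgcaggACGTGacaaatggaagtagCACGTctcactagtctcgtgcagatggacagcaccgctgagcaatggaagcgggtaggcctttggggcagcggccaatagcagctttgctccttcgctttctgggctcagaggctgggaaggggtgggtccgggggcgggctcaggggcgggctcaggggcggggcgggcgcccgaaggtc
Ldha, chr7:46845554-46845853, plus strand: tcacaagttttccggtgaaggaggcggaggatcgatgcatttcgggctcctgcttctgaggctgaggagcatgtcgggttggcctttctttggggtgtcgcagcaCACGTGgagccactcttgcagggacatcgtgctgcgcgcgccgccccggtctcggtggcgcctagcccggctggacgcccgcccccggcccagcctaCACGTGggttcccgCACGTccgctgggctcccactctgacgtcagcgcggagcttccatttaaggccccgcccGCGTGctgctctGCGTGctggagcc

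The RefSeq table held 16 windows for all 10 genes. At least 1 of the letters ACGTG or GCGTG stood in 13 of the 16 windows, in 9 of the 10 genes, while 43.8% of all 32851 promoter windows held one. Tpi1 was the gene without a match. Some windows of Aldoa and of the unmeasured Eno1 overlapped each other, so the window counts hold some sites more than once. ACGTG occurred in 7 windows of the set, against 19.6% of all windows, and GCGTG in 9, against 32.4% of all windows. The longer letters CACGTG, the E-box that Myc binds, contain ACGTG on both strands. CACGTG was found 2 times in the Ldha window printed here and in no other window of the set, and 7.15% of all windows held it. The windows of the set held a median of 20.5 CG dinucleotides, against 7 over all windows, so any motif with a CG has more places in them. A match describes letters and is no evidence of binding.

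Dnmt1 itself followed the labels. Its log2 level was 8.01 to 8.24 in hypomorph MP, against 11.30 to 11.73 in wildtype MP, and 8.48 to 9.31 in hypomorph HSC, against 11.58 and 11.80 in wildtype HSC. The B lineage, granulocyte and monocyte markers fitted the labelled populations. The 7 tested B lineage markers had a summed linear signal of 34044 to 42486 in B progenitors and at most 691.4 on any other array. The 7 granulocyte and monocyte markers reached 62126 to 69136 in MP and 197.9 to 207.3 in B progenitors. In HSC they reached 10789 to 12346 in hypomorph and 7049 to 7769 in wildtype mice. The 5 mature myeloid markers summed to 1957 to 3605 in hypomorph MP and 1564 to 2018 in wildtype MP. In B progenitors they summed to 222.5 to 692.1. Their sums were 2633 to 5179 in hypomorph HSC and 2439 to 3194 in wildtype HSC, above those of wildtype MP. The part of these markers in the glycolysis values was not tested. The 7 stem cell markers summed to 4828 to 6713 in hypomorph HSC, against 8076 to 10448 in wildtype HSC. The 19 tested replication genes also differed, with sums of 45870 to 57362 in hypomorph HSC, against 25391 to 33005 in wildtype HSC. Xist and the Y-linked Eif2s3y varied within groups, so animals of both sexes contributed, and Pgk1 lies on the X chromosome. Eif2s3y was 9.31, 6.95 and 8.10 in hypomorph HSC, against 8.68 and 2.35 in wildtype HSC. The second wildtype HSC array was thus the only HSC array with a low level. The part of sex in the differences was not tested. In RNA from sorted populations, fewer cells of a type and less RNA per cell cannot be told apart.

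Wildtype B progenitors were compared with wildtype HSC to ask how the pathway differs along the lymphoid branch. All 9 measured genes were lower in B progenitors, by 1.66-fold for Pfkp up to 11.9-fold for Pfkl, and both B progenitor arrays lay below both HSC arrays for each of them. Over all tested genes 30.2% fell and 14.8% rose at a limma adjusted p under 0.05, 45% in all, and 44.4% had both B progenitor arrays below both HSC arrays. The median log2 difference of the 9 genes was -1.85, beside -0.25 over all genes. Of the 19 replication genes 12 were higher in B progenitors than in HSC, and their part in the result was not tested.

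The glucose transporter gene was lower in B progenitors. Slc2a1 (chr4:119108745-119137330) had log2 levels of 7.66 and 7.94 in B progenitors and 9.72 and 9.60 in HSC. The difference was -1.85 (SE 0.34, limma adjusted p = 5.03e-04), a 3.61-fold lower signal, and its 3 probe sets gave -1.85, -2.28 and -2.34.

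Both hexokinases were lower. Hk1 (chr10:62268855-62379920), the widely expressed hexokinase, had levels of 8.04 and 7.68 in B progenitors, against 10.61 and 10.38 in HSC. Its difference was -2.63 (SE 0.48, limma adjusted p = 4.83e-04). Hk2 (chr6:82725025-82774454), the inducible hexokinase known from muscle and tumours, had levels of 5.47 and 5.75 in B progenitors, against 8.00 and 7.98 in HSC. The HSC arrays differed from each other by far less than from the B progenitor arrays, and the difference of -2.38 (SE 0.26, limma adjusted p = 6.06e-06) corresponds to a 5.21-fold lower signal.

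The phosphofructokinase genes differed in size of change. Pfkl (chr10:77986947-78009807) encodes the liver-type subunit and had levels of 7.61 and 7.96 in B progenitors, against 11.11 and 11.60 in HSC. Its difference of -3.57 (SE 0.33, limma adjusted p = 1.33e-06) was the widest of the 9 genes. Pfkp (chr13:6579874-6649060), the platelet-type subunit, had levels of 8.30 and 8.91 in B progenitors, against 9.02 and 9.66 in HSC, so the groups nearly touched. Its difference was -0.73 (SE 0.28, limma adjusted p = 0.0433), and this call was not stable: leaving out the second HSC array gave -0.41 (limma adjusted p = 0.324) and leaving out the first B progenitor array gave -0.43 (limma adjusted p = 0.303). Within an array, Pfkp minus Pfkl averaged -0.64 ± 0.31 in wildtype MP (SD, n = 3), 0.82 ± 0.18 in B progenitors (SD, n = 2) and -2.01 ± 0.11 in wildtype HSC (SD, n = 2), which shows unequal change of the probe sets and not which subunit was more abundant.

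The enzymes that split the sugar and act on the products were lower as well. Aldoa (chr7:126795234-126800994), the aldolase of muscle and blood cells, had levels of 9.38 and 9.18 in B progenitors, against 12.30 and 12.60 in HSC, an 8.98-fold lower signal (difference -3.17, SE 0.25, limma adjusted p = 3.08e-07). Tpi1 (chr6:124810586-124814158), the triosephosphate isomerase, had levels of 9.82 and 10.08 in B progenitors, against 11.38 and 10.95 in HSC (difference -1.21, SE 0.23, limma adjusted p = 6.39e-04). Pgk1 (chrX:106187100-106203699), the phosphoglycerate kinase, had levels of 11.80 and 11.88 in B progenitors, against 12.76 and 12.72 in HSC (difference -0.90, SE 0.19, limma adjusted p = 0.00139). For these 3 genes the gap between the populations exceeded the spread within each of them. Ldha (chr7:46842274-46855627), the muscle-type lactate dehydrogenase subunit, had levels of 10.58 and 10.56 in B progenitors and 11.87 and 11.57 in HSC, a 2.22-fold lower signal (difference -1.15, SE 0.28, limma adjusted p = 0.00364).

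**Figure D1:**
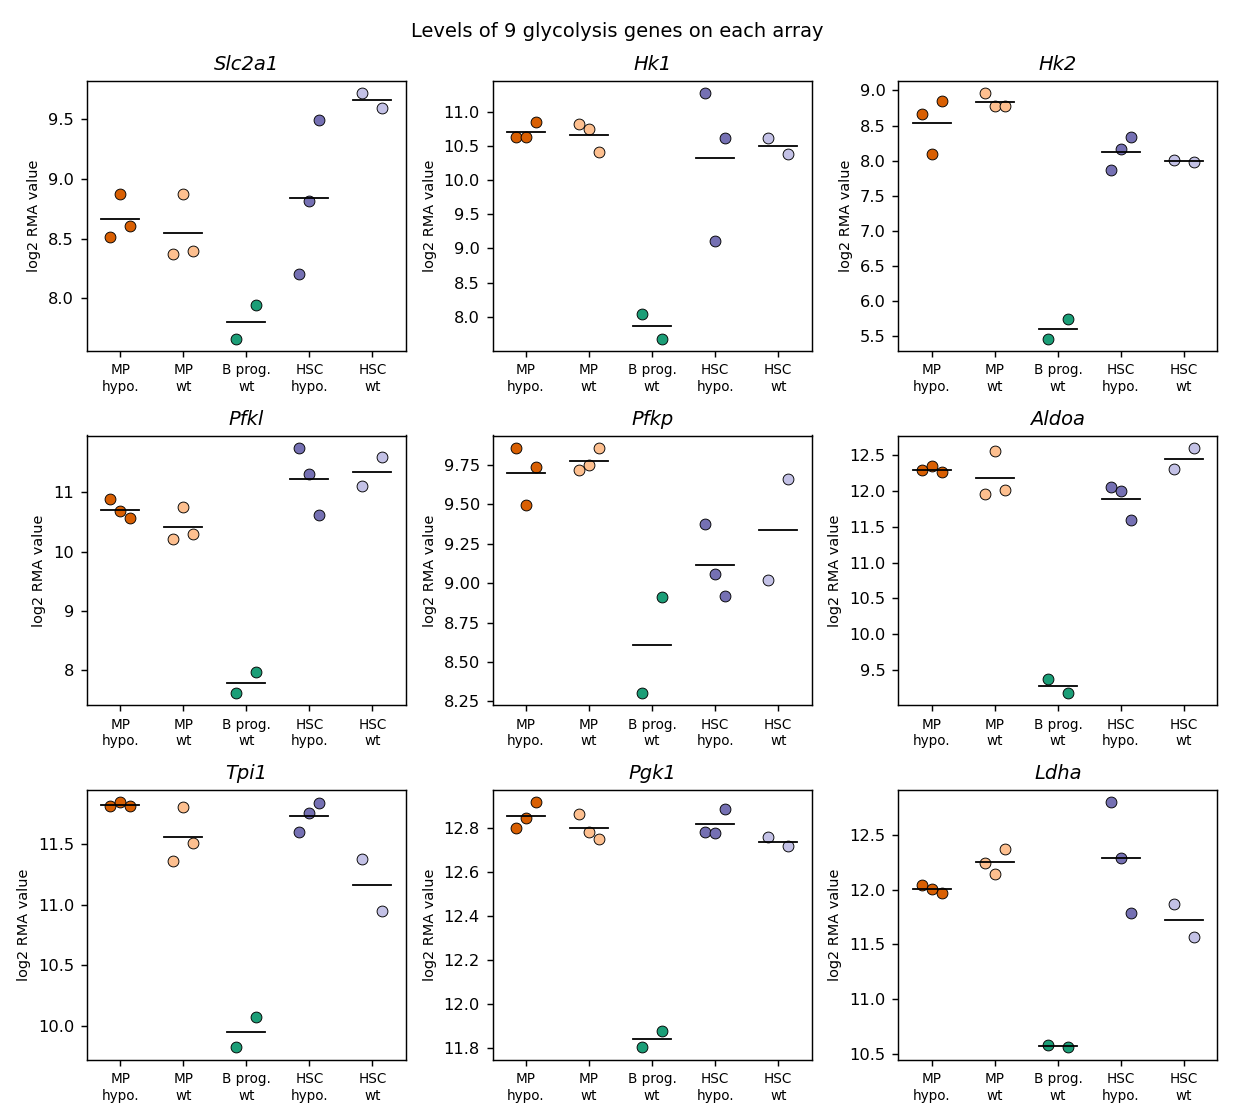
Log2 RMA level of each measured gene (1 panel per gene, vertical axes differ and do not start at 0) on every array, in hypomorph (hypo.) and wildtype (wt) MP, wildtype B progenitors (B prog.), and hypomorph and wildtype HSC; points are arrays and bars are group means. The 2 B progenitor arrays lie lowest in all 9 panels, with 1 near neighbour in the Pfkp panel, where the lowest HSC array is at 8.92 and the upper B progenitor array at 8.91.

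The direction held when each array was centred on its median over the tested genes, but the sizes shrank. Centring moved the median of all genes by 0.47 in this comparison, and the share of calls that were higher went to 57.4%, beside 32.9% without centring. After centring 7 of the 9 genes were still called lower, with a median of -1.38 over the 9 genes, while Pgk1 at -0.43 (limma adjusted p = 0.154) and Pfkp at -0.26 (limma adjusted p = 0.405) were not. Of the 22 probe sets that passed the filter, 20 were lower in B progenitors in a fit of all probe sets, in which 41.4% of the probe sets tested were called. The other 2 were the second Hk1 probe set and the Pfkp probe set, with differences of -1.50 and -0.73.

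Wildtype MP were set against wildtype B progenitors, a comparison that shares the B progenitor arrays with the one just described. MP were higher for 8 of the 9 genes, where 24.7% of all tested genes rose, 11.2% fell and 35.9% were called in either direction. For all 9 genes the 3 MP arrays lay above both B progenitor arrays, as for 37.7% of all tested genes, and 21.4% of all genes lay below without overlap. The median log2 difference of the 9 genes was 1.69, beside 0.13 over all genes.

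Hexokinase 2 had the widest gap. Hk2 had levels of 8.96, 8.78 and 8.78 in MP, against 5.47 and 5.75 in B progenitors, a 9.41-fold higher signal (difference 3.23, SE 0.24, limma adjusted p = 1.3e-07). Hk1 had levels of 10.82, 10.75 and 10.41 in MP, against 8.04 and 7.68 in B progenitors (difference 2.79, SE 0.44, limma adjusted p = 1.83e-04). Both hexokinases thus stood apart by far more than the spread within either group. Aldoa had levels of 11.96, 12.55 and 12.01 in MP, against 9.38 and 9.18 in B progenitors (difference 2.89, SE 0.23, limma adjusted p = 2.94e-07). Pfkl had levels of 10.21, 10.75 and 10.29 in MP, against 7.61 and 7.96 in B progenitors (difference 2.63, SE 0.30, limma adjusted p = 1.17e-05). The remaining called enzymes differed less, from 3.22-fold higher for Ldha and 3.05-fold for Tpi1 to 2.24-fold for Pfkp and 1.95-fold for Pgk1.

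Slc2a1 was the exception. Its levels were 8.37, 8.88 and 8.40 in MP, against 7.66 and 7.94 in B progenitors, a difference of 0.74 (95% interval 0.08 to 1.41, limma adjusted p = 0.0785). The call depended on the fit: with the arrays of these groups alone the limma adjusted p was 0.0349, and with the first or the third hypomorph HSC array left out it was 0.031 or 0.0246. After centring, which moved the median of all genes by -0.41 and the share of higher calls to 39.7%, beside 68.9% without it, 7 genes were called higher, Slc2a1 gave 0.33 and Pgk1 gave 0.55 (limma adjusted p = 0.0542). Of the 22 probe sets, 18 were higher in MP, where 33.4% of all probe sets were called. The other 4 were the 3 of Slc2a1, with differences of 0.59 to 0.74, and 1 of Pfkl with 0.27.

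**Figure D2:**
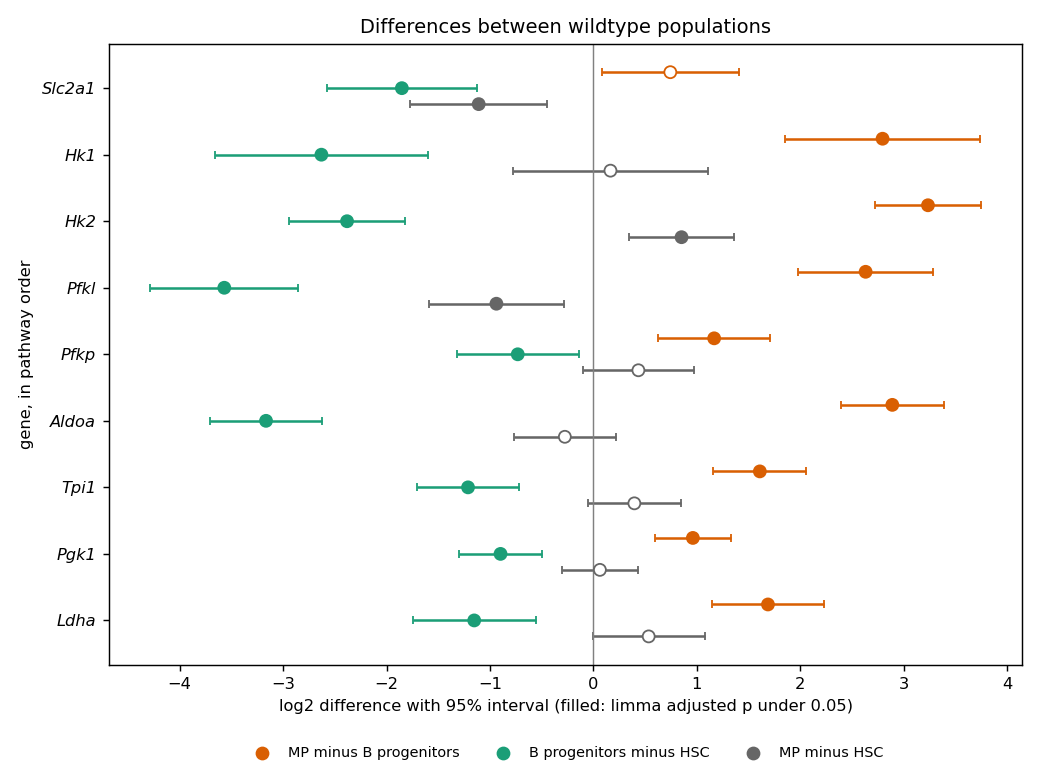
Log2 differences (horizontal axis) with 95% intervals for each gene (vertical axis, in pathway order) between wildtype populations: MP minus B progenitors, B progenitors minus HSC and MP minus HSC; filled points have a limma adjusted p under 0.05. All B progenitor minus HSC points lie left of 0, from -0.73 to -3.57, whereas MP minus HSC points lie on both sides, from -1.11 to 0.85. Each population enters more than 1 contrast, so the differences are not independent.

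Wildtype MP differed from wildtype HSC in 3 of the 9 genes, with Hk2 higher and Slc2a1 and Pfkl lower. In this comparison 31.8% of all tested genes were called, 13.8% higher and 18% lower. The median log2 difference of the 9 genes was 0.16, beside -0.12 over all genes. The mean log2 level of the 9 genes was 10.71 to 10.91 on the MP arrays, 8.74 and 8.88 on the B progenitor arrays and 10.75 and 10.78 on the HSC arrays, so the MP and HSC ranges overlapped and the B progenitor arrays lay apart.

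The glucose transporter was lower in MP. Slc2a1 had levels of 8.37, 8.88 and 8.40 in MP, against 9.72 and 9.60 in HSC, a 2.16-fold lower signal (difference -1.11, SE 0.31, limma adjusted p = 0.0146). Its other probe sets gave -1.76 and -1.57, and all 3 were called. Of the 22 probe sets 1 was higher and 5 were lower, where 26.8% of all probe sets were called. Pfkl had levels of 10.21, 10.75 and 10.29 in MP, against 11.11 and 11.60 in HSC (difference -0.94, SE 0.30, limma adjusted p = 0.0305). Hk2 had levels of 8.96, 8.78 and 8.78 in MP, against 8.00 and 7.98 in HSC, a 1.80-fold higher signal (difference 0.85, SE 0.24, limma adjusted p = 0.0149). In each of these genes the groups did not overlap. Without overlap 3 of the 9 genes were higher in MP and 2 lower, where 23.1% and 33.6% of all tested genes were, and the calls rested on few arrays. Without the second HSC array none of the 3 was called, with differences of -1.17 for Slc2a1, -0.69 for Pfkl and 0.84 for Hk2 and limma adjusted p of 0.0589, 0.222 and 0.0733. Without the first MP array none was called either (-1.02, -0.84 and 0.79; limma adjusted p = 0.0542, 0.101 and 0.0553). Without the first HSC array Slc2a1 (-1.05) and Hk2 (0.87) lost the call, and without the third MP array Slc2a1 (-1.04) and Pfkl (-0.88) did.

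The other 6 genes did not pass the test between MP and HSC. Ldha had a difference of 0.53 (95% interval -0.01 to 1.08, limma adjusted p = 0.124), Pfkp 0.43 (-0.11 to 0.97) and Tpi1 0.40 (-0.05 to 0.84). The other Tpi1 probe sets gave -0.04 and 0.02. Pgk1, at 0.06, had the tightest interval, from -0.31 to 0.43, while Hk1 at 0.16 allowed anything from -0.78 to 1.10. Aldoa gave -0.28 (-0.77 to 0.22). Its other probe sets gave -0.46 (limma adjusted p = 0.116), -0.10, 0.12 and 0.65, so the direction depended on the probe set.

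In hypomorph mice 0 of the 9 genes differed between MP and HSC by limma, beside 11.7% of all tested genes (4.18% higher and 7.47% lower), and 1 gene, Pfkp, had an unadjusted p under 0.05. Pfkp had levels of 9.86, 9.49 and 9.74 in hypomorph MP and 9.37, 9.06 and 8.92 in hypomorph HSC (difference 0.58, 95% interval 0.10 to 1.06, limma adjusted p = 0.128). Slc2a1, lower in MP than in HSC of wildtype mice, had levels of 8.51, 8.87 and 8.61 in hypomorph MP, inside the range of 8.21, 8.82 and 9.49 in hypomorph HSC (difference -0.17, 95% interval -0.77 to 0.42). Its other probe sets gave -0.56 (unadjusted p = 0.0193, limma adjusted p = 0.137) and -0.86 (limma adjusted p = 0.279), so they were further from 0 than the probe set that stands for the gene. In 2 of the 9 genes, Pfkp and Aldoa, all hypomorph MP arrays lay above all hypomorph HSC arrays and in 0 below, where 11.6% and 15.9% of all tested genes did. None of the 22 probe sets was called (0, beside 8.41% of all probe sets). The difference between the genotypes in this contrast is the interaction given after the genotype results.

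Hypomorph HSC were compared with wildtype HSC to ask whether reduced Dnmt1 changes the pathway in stem cells. None of the 9 genes passed the test by limma (0 called), where 10.8% of all tested genes did, 5.37% higher and 5.41% lower. After centring, 60.4% of all calls were higher, beside 49.8% without it. With the HSC arrays fitted alone, 139 genes in all were called, beside 1375. Of the 9 genes, 4 had an unadjusted p under 0.05: Slc2a1 and Aldoa with negative differences, Tpi1 and Ldha with positive ones. The groups did not overlap in 4 genes, 2 higher (Tpi1 and Pgk1) and 2 lower (Slc2a1 and Aldoa) in hypomorph HSC, where 13.2% and 22.4% of all tested genes did not. The median log2 difference of the 9 genes was -0.13, beside -0.11 over all genes.

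Slc2a1 had levels of 8.21, 8.82 and 9.49 in hypomorph HSC, against 9.72 and 9.60 in wildtype HSC. Every hypomorph array lay below both wildtype arrays, but the hypomorph arrays spread over more than 1 log2 unit (8.84 ± 0.64, SD, n = 3, against 9.66 ± 0.09 in wildtype, SD, n = 2). The difference was -0.82 (95% interval -1.48 to -0.15, limma adjusted p = 0.107). Another of its 3 probe sets gave -1.17 (SE 0.24, limma adjusted p = 0.0097) in the fit of all probe sets, where 8.76% were called, and was the 1 called probe set of the 22. The third probe set gave -1.31 (95% interval -2.33 to -0.30, limma adjusted p = 0.105), so all 3 were negative. With all probe sets of the gene averaged the difference was -1.10 (limma adjusted p = 0.00314). Without the third hypomorph HSC array the main probe set gave -1.15 (limma adjusted p = 0.0151), so whether Slc2a1 is called turns on the probe set and on this array. The probe sets disagreed on this array. It was the highest hypomorph HSC array on the main probe set. On the third probe set, with 7.32, 6.23 and 4.93, it was the lowest. The cause of this conflict was not tested.

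Ldha had levels of 12.80, 12.29 and 11.79 in hypomorph HSC, against 11.87 and 11.57 in wildtype HSC, and the groups overlapped (difference 0.57, 95% interval 0.03 to 1.11, limma adjusted p = 0.169). Without the third hypomorph HSC array it was 0.82 (limma adjusted p = 0.032). Aldoa had levels of 12.06, 12.00 and 11.59 in hypomorph HSC, below the 12.30 and 12.60 of wildtype HSC (difference -0.57, 95% interval -1.06 to -0.07, limma adjusted p = 0.132). Of the 5 Aldoa probe sets, the other 4 gave -0.62, -0.48, -0.15 and -0.03. Tpi1 had levels of 11.60, 11.76 and 11.84 in hypomorph HSC, above the 11.38 and 10.95 of wildtype HSC (difference 0.57, 95% interval 0.12 to 1.02). Its other probe sets gave -0.02 and -0.03, so the positive value belongs to 1 of 3 probe sets. On these other probe sets the third hypomorph HSC array was the lowest of its group, at 10.89 and 11.14. On the main Tpi1 probe set it was the highest.

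Hk1 varied most among hypomorph HSC, with levels of 11.27, 9.11 and 10.61, against 10.61 and 10.38 in wildtype HSC. Its SD of 1.11 leaves an interval from -1.10 to 0.77 around a difference of -0.17. On its main probe set Pgk1 hardly varied, with 12.78, 12.78 and 12.89 in hypomorph HSC, against 12.76 and 12.72 in wildtype HSC (difference 0.08, 95% interval -0.29 to 0.45). Another Pgk1 probe set had 13.01, 12.83 and 12.05 in hypomorph HSC, against 12.11 and 12.16 in wildtype HSC (difference 0.50, limma adjusted p = 0.269), and the third gave 0.19. The differences of Hk2 (0.13), Pfkl (-0.13) and Pfkp (-0.22) had intervals that included 0. Another Pfkl probe set gave -0.65 (95% interval -1.21 to -0.08, limma adjusted p = 0.147), and the third gave -0.16. Other gene lists moved in the same comparison. Over all tested genes 5.37% were higher and 5.41% lower, with a median of -0.11. Of 19 replication genes 12 were higher in hypomorph HSC, with a median of 1.20. Granulocyte and monocyte markers were higher in 3 of 7, and the sums of the 6 erythroid markers, 2 of them higher, were 1080 to 1555 in hypomorph HSC, against 630.3 to 702.7 in wildtype HSC. B lineage markers were lower in 2 of 7, with sums of 356.9 to 417.1 in hypomorph HSC, against 614.4 to 691.4 in wildtype HSC. Of 2 tested markers of stroma and endothelium 1 was lower, with sums of 169.2 to 216.3 in hypomorph HSC, against 308.5 to 692.1 in wildtype HSC. Of 5 mature myeloid markers 0 were called, with a median of 1.10. Their sums were 2633 to 5179 in hypomorph HSC, against 2439 to 3194 in wildtype HSC. The part of these lists in the values of the glycolysis genes was not tested.

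In MP the genotypes differed in 0 of the 9 genes by limma, beside 0.588% of all tested genes (0.337% higher and 0.251% lower), and 0 genes had an unadjusted p under 0.05. The differences ran from -0.31 for Hk2 (95% interval -0.76 to 0.15) to 0.30 for Pfkl (-0.29 to 0.88). On its main probe set Slc2a1 had 8.51, 8.87 and 8.61 in hypomorph MP and 8.37, 8.88 and 8.40 in wildtype MP, which overlap. Its other probe sets gave 0.02 and -0.61 (limma adjusted p = 0.525 for -0.61). The one at -0.61 had 5.40, 5.02 and 5.48 in hypomorph MP, below 5.81, 6.12 and 5.79 in wildtype MP. The second Hk1 probe set gave -0.91 (limma adjusted p = 0.578), with 5.32, 4.56 and 5.53 in hypomorph MP. It had 6.57, 5.63 and 5.95 in wildtype MP, again without overlap. Ldha had levels of 12.05, 12.00 and 11.97 in hypomorph MP and 12.25, 12.15 and 12.37 in wildtype MP. These did not overlap, yet the difference did not pass the test (-0.25, 95% interval -0.73 to 0.24, limma adjusted p = 0.625). Tpi1 lay higher in hypomorph MP, with 11.81, 11.84 and 11.81, than in wildtype MP, with 11.36, 11.81 and 11.51, though by a narrow margin (difference 0.26, 95% interval -0.14 to 0.67). Its other probe sets gave 0.006 and 0.09 and overlapped between the genotypes, so the gap was on the main probe set only. The intervals of all 9 genes lay within -0.80 and 0.88. On the main probe sets Tpi1 and Ldha were the genes without overlap, 1 in each direction. Over all tested genes 11.3% were higher and 16.3% lower without overlap. Of the 22 probe sets 0 were called, beside 0.452% of all.

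The difference between the genotype effects, HSC minus MP, was not called for any of the 9 genes by limma, where 5.63% of all tested genes were, 3.27% above 0 and 2.35% below. None of the 22 probe sets was called (0, beside 4.38% of all). An unadjusted p under 0.05 was reached by 3 genes. Slc2a1 gave -0.94 (95% interval -1.83 to -0.04, limma adjusted p = 0.188), Aldoa -0.69 (-1.36 to -0.03, limma adjusted p = 0.192) and Ldha 0.82 (0.09 to 1.54, limma adjusted p = 0.16). The other Slc2a1 probe sets gave -1.19 (limma adjusted p = 0.0525) and -0.71, and those of Aldoa ran from -0.92 to 0.09. A further Pfkl probe set gave -0.83 (limma adjusted p = 0.183), beside -0.42 for its main probe set. Without the third hypomorph HSC array Slc2a1 gave -1.26 (limma adjusted p = 0.033) and Ldha 1.07 (limma adjusted p = 0.0325).

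**Figure D3:**
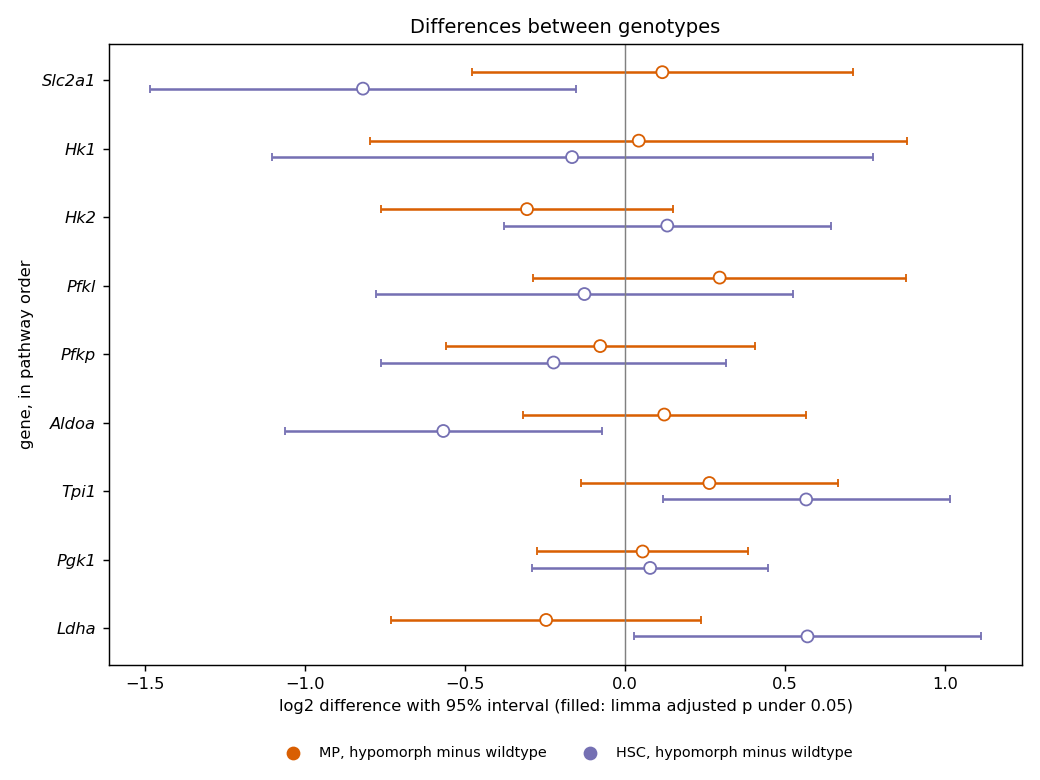
Log2 difference of hypomorph minus wildtype (horizontal axis) with 95% intervals for each gene (vertical axis, in pathway order) in MP and in HSC; filled points would have a limma adjusted p under 0.05. All 18 points are open. In HSC the intervals of Slc2a1, Aldoa, Tpi1 and Ldha leave out 0, and in MP all 9 intervals include it.

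Further genes of sugar metabolism were taken from lists chosen with earlier results of these data known, and are described by counts. Together they held 68 tested genes, of which 50% were called in B progenitors against HSC, 47.1% in MP against B progenitors and 38.2% in MP against HSC of wildtype mice, where 45%, 35.9% and 31.8% of all tested genes were. Of 14 other glycolytic enzymes tested, 10 were lower and 0 higher in wildtype B progenitors than in wildtype HSC, with a median of -1.22, where 30.2% of all tested genes were lower and 14.8% higher. The widest falls were in Ldhb, the heart-type lactate dehydrogenase subunit (-5.05, SE 0.29), Aldoc, the brain-type aldolase (-4.15, SE 0.33), and Hk3, a hexokinase of myeloid cells (-3.59, SE 0.43). In MP against B progenitors 7 were higher and 0 lower (24.7% and 11.2% of all genes), with Hk3 at 5.30 and Pgam1, the phosphoglycerate mutase, at 2.75. In MP against HSC of wildtype mice 2 were higher and 5 lower (13.8% and 18% of all genes), with Hk3 at 1.71 and Aldoc at -3.79; Hk3 lost the call without the first HSC array (1.21, limma adjusted p = 0.0694).

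Among sugar and lactate transporters, 1 of 9 was higher and 3 were lower in B progenitors than in HSC, near the 14.8% and 30.2% of all tested genes. Slc16a1, which encodes the lactate and pyruvate carrier MCT1, was higher by 4.33 (SE 0.40, limma adjusted p = 1.29e-06), and Slc2a3, the glucose transporter GLUT3, was lower (-3.84, SE 0.23). Bsg, the partner protein that brings MCT1 to the membrane, was lower as well (-2.69, SE 0.41). In MP against HSC of wildtype mice Slc16a1 was higher (2.38, SE 0.37) and Slc2a3 lower (-1.90, SE 0.21).

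Of the 13 tested regulators 4 were higher and 4 lower in B progenitors than in HSC. Beside this list and those that follow, 14.8% of all tested genes were higher and 30.2% lower. Hif1a, the oxygen-regulated subunit of the hypoxia-inducible factor, was higher (1.33, SE 0.31), and Myc (-2.57, SE 0.34) and Fbp1, an enzyme of the reverse pathway (-2.91, SE 0.29), were lower. Meis1, a transcription factor that is also among the stem cell markers, was lower (-4.37, SE 0.37). Of 9 pentose phosphate genes 4 were higher and 1 lower, led by Pgls, the lactonase of the oxidative branch (2.74, SE 0.34). Of 12 genes of pyruvate entry into mitochondria 1 was higher and 3 lower, with Dld, a subunit of pyruvate dehydrogenase, at 2.07; without the second B progenitor array it gave 1.73 (limma adjusted p = 0.0707).

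Between the genotypes 9 of the 68 list genes were called in HSC, or 13.2%, where 10.8% of all tested genes were, and 0 in MP by limma, where 0.588% were. Pdk1, a kinase that switches off pyruvate dehydrogenase, was higher in hypomorph HSC (10.64 ± 1.18, SD, n = 3) than in wildtype HSC (8.39 ± 0.90, SD, n = 2), a difference of 2.25 (SE 0.55, limma adjusted p = 0.0189), and Pdp1, the phosphatase that switches it back on, gave 1.19 (SE 0.34, limma adjusted p = 0.0394). Slc16a1 was higher by 1.65 (SE 0.37, limma adjusted p = 0.0126) and Egln3, an oxygen-dependent prolyl hydroxylase, by 1.76 (SE 0.47, limma adjusted p = 0.0293). Ldhb (-1.20, SE 0.27) and Aldoc (-1.18, SE 0.30) were lower. Rpe of the pentose phosphate pathway was higher (1.12, SE 0.32) and the phosphatase gene Pdp2 lower (-0.74, SE 0.21). All 8 of these calls were lost when the HSC arrays were fitted alone, with limma adjusted p of 0.0764 for Egln3 up to 0.16 for Pdk1. Without the second wildtype HSC array 7 of the 8 were lost, with differences of 1.62 for Pdk1, 1.44 for Slc16a1, 0.98 for Pdp1, -0.99 for Ldhb, -0.84 for Aldoc, 0.78 for Rpe and -0.80 for Pdp2, and Egln3 was lost without the first (1.19, limma adjusted p = 0.178). With all probe sets of Pdk1 averaged its difference was 0.67 (limma adjusted p = 0.191).

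**Figure D4:**
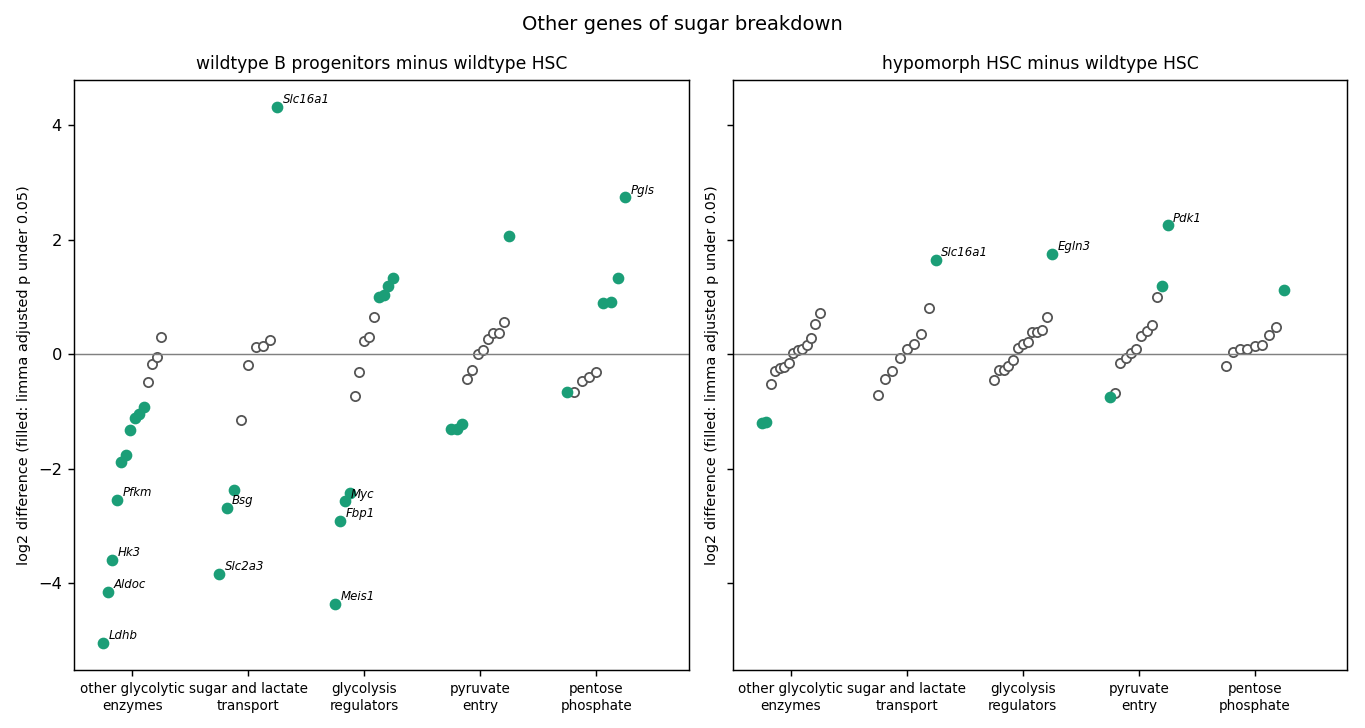
Log2 differences (vertical axis) of other genes of sugar metabolism, by list (horizontal axis), in wildtype B progenitors minus wildtype HSC and in hypomorph HSC minus wildtype HSC; each point is a gene, sorted within its list, filled points have a limma adjusted p under 0.05 and some of the widest are named. Among other glycolytic enzymes, 10 of 14 are filled below 0 in B progenitors, while Slc16a1 stands highest in the same panel at 4.33.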

How the data were processed

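Expression of sorted mouse bone marrow populations was measured on 13 Affymetrix arrays. The authors' deposited values are log2 intensities made by RMA, per the submitters' processing notes; its version is not stated in the sources at hand. They ran from 1.93 to 14.99, with array medians of 4.56 to 4.74, and the log2 base is inferred from this range. A second RMA set of 11 columns holds the HSC and MP arrays again (lowest correlation between equal labels 0.999 after rounding); it served as an alternative and added no replicates.

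Probe sets with 1 gene symbol in the GEO platform annotation (34958 of 45101; 932 had several, 9211 none) were kept if 2 or more arrays reached 4.64, which is the median over all values. Each gene was represented by its probe set of highest mean. All Aldoa probe sets and some of Tpi1 and Pgk1 end in _x_at, a suffix for probes that can bind transcripts of other genes, and 1 Hk1 probe set with several symbols was left out. Without detection calls, low values cannot be told from background.

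In R 4.3.3, limma 3.58.1 fitted 5 groups to 12745 genes (8 residual degrees of freedom before moderation) for 7 comparisons, with Benjamini-Hochberg adjustment over all genes, and genes under 0.05 are called. The code was tested on simulated data. Comparisons share arrays and are not independent. Genes named were all members with their probe sets, Dnmt1, and up to 3 called genes in each direction of each further list. The members and lists were chosen with earlier results of these data known. Same-numbered arrays of different groups correlated in their deviations by -0.20 to 0.30, so the numbers were not taken to pair the samples. Alternatives were the second RMA set, the arrays compared only, a replicate block, a trended and robust prior, array weights, no filter or a filter at the 75th percentile (7.10), averaged or separate probe sets, centred arrays and leaving out each array. Promoter windows came from RefSeq, build GRCm38.p6.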

Additional observations from a re-analysis of the deposited data

Results flagged for a closer look

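For 4 of the 68 tested genes of the wider lists, or 5.88%, the genotype effect differed between HSC and MP by the test of the difference itself, near the 5.63% of all tested genes. Pdp1, a pyruvate dehydrogenase phosphatase, gave a difference of effects of 2.06 (SE 0.46, limma adjusted p = 0.0216), from 1.19 in HSC and -0.87 in MP. Slc16a1, the carrier MCT1, gave 1.81 (SE 0.49, limma adjusted p = 0.0484), from 1.65 in HSC and -0.16 in MP. Prps2, which makes the ribose precursor of nucleotides, gave 1.55 (SE 0.42, limma adjusted p = 0.0489), from 0.48 in HSC and -1.06 in MP, neither of which passed the test alone. Pdp2, the other phosphatase, gave -1.01 (SE 0.28, limma adjusted p = 0.0483), from -0.74 in HSC and 0.27 in MP. Each of these calls is close to the threshold or rests on single arrays: over the alternatives the limma adjusted p reached 0.0901 for Pdp1, 0.168 for Slc16a1, 0.135 for Prps2 and 0.142 for Pdp2.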

How the results depend on the processing

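Of 1368 values of the 9 genes under the alternatives, 1294 kept direction and side of the threshold, 25 kept the direction and lost the call, 26 kept it and gained a call, and 23 changed sign, all of them uncalled before and after. Between genotypes in HSC, with single arrays left out, Hk1 ran from -0.63 to 0.44, Pfkl from -0.39 to 0.18 and Pfkp from -0.54 to 0.097, and Pfkl gave 0.019 with a replicate block. Between genotypes in MP, Hk1 ran from -0.079 to 0.12 and Pfkp from -0.16 to 0.024, averaged probe sets gave -0.43 for Hk1, -0.16 for Slc2a1 and -0.019 for Pgk1, and centred arrays 0.036 for Pfkp. For the difference of effects, Hk1 ran from -0.68 to 0.40, Pfkp from -0.47 to 0.17 and Pgk1 from -0.012 to 0.055, with 0.29 for Hk1 with averaged probe sets and, for Pgk1, -0.037 with array weights and -0.017 with centred arrays. In MP against HSC of hypomorph mice, Hk1 ran from -0.24 to 0.84 and Slc2a1 from -0.49 to 0.15, and Pgk1 gave -0.043 with averaged probe sets. In B progenitors against HSC 9 genes were called, 8 to 9 with single arrays left out and 7 to 9 under the other alternatives. In MP against B progenitors 8 were called, 8 to 9 and 7 to 9. In MP against HSC of wildtype mice 3 were called, 0 to 3 with single arrays left out and 2 to 4 otherwise. In MP against HSC of hypomorph mice 0 were called, 0 to 1 with single arrays left out (Pfkl), 1 with centred arrays (Pfkp, 0.68) and 6 with array weights. Between genotypes in HSC 0 were called, 0 to 2 with single arrays left out, and 1 each with array weights, averaged probe sets and every probe set (Slc2a1). In MP 0 were called, 0 with any array left out and 3 with array weights. For the difference of these effects 0 were called, 0 to 2 with single arrays left out, 1 with averaged probe sets and 3 with array weights. The estimate of array weights stopped before it converged, and it also raised the calls over all genes in MP between genotypes to 4615, beside 75.

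With a replicate block Pfkl in MP against HSC of wildtype mice gave -0.79 (limma adjusted p = 0.0634) and Pfkp in B progenitors against HSC -0.73 (limma adjusted p = 0.0657), and no other gene of the 9 changed its call; over all genes the block left 896 calls between genotypes in HSC, beside 1375, and 375 for the difference of effects, beside 717. Pfkp in B progenitors against HSC also missed the threshold with the arrays compared alone (limma adjusted p = 0.153), with array weights (0.0866) and with any 1 of 8 arrays left out. With the arrays compared alone 139 genes were called between genotypes in HSC, beside 1375, and 164 in MP, beside 75. With single arrays left out these counts were 453 to 1796 in HSC, 38 to 184 in MP and 241 to 1444 for the difference of effects. The causes were not tested. The second RMA set holds no B progenitor arrays, so it gives no value for them. The limits are 2 to 3 arrays in a group, no detection calls, and _x_at probe sets that can take up signal of other genes.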

Other observations

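Of 12 other tested targets of the hypoxia-inducible factor, 3 were lower and 0 higher in wildtype B progenitors than in wildtype HSC, where 30.2% of all tested genes were lower and 14.8% higher: Car9, a carbonic anhydrase (-3.59, SE 0.24), Ndrg1 (-2.87, SE 0.29) and P4ha1, a collagen prolyl hydroxylase (-2.02, SE 0.44). In wildtype MP against B progenitors 5 were higher and 1 was lower (24.7% and 11.2% of all genes), with Car9 at 3.46 and Ddit4, an inhibitor of mTOR signalling, at -2.24. In hypomorph HSC against wildtype HSC 2 were higher (5.37% of all genes), Egln3 and the mitochondrial protein gene Higd1a (1.33, SE 0.26, limma adjusted p = 0.00644). Higd1a lost that call with the HSC arrays alone (limma adjusted p = 0.102) and without the second wildtype HSC array (0.99, limma adjusted p = 0.103).

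In hypomorph mice, where 0 of the 9 glycolysis genes differed between MP and HSC by limma, other enzymes of the pathway did: 3 of 14 were higher in MP and 4 lower (4.18% and 7.47% of all genes), among them Hk3 (1.28, SE 0.35) and Pgam1 (0.91, SE 0.19) as higher and Aldoc (-3.01, SE 0.27) and Eno2, the neuronal enolase (-1.38, SE 0.28), as lower. Hk3 lost the call without any 1 of 5 hypomorph arrays, with differences from 1.16 to 1.35. Slc2a3 was lower in hypomorph MP than in hypomorph HSC (-1.21, SE 0.19), as it was in wildtype mice (-1.90, SE 0.21).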
